A study of Homo sapiens with 32 samples.

Results

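The 10 genes followed here are targets of the Wnt/beta-catenin pathway or feed back on it: AXIN2, LGR5, ASCL2, NKD1, RNF43, ZNRF3, LEF1, TCF7, DKK1 and CTNNB1. They were taken as the rows of the count table whose Ensembl identifier maps to one of these symbols, and all 10 were found among 60660 gene identifiers. Poly(A) RNA of HCT116 colorectal carcinoma cells was sequenced in 32 libraries. Every line carried a doxycycline-inducible OsTIR1 construct, the controls included. Parental cells were compared with cells in which IGF2BP3 or IGF2BP2, which encode RNA-binding proteins, had been disrupted by transient Cas9 and guide expression followed by sorting of single cells. Each genotype was treated with DMSO, the solvent, or with tunicamycin, which blocks N-linked glycosylation and so stresses the endoplasmic reticulum.

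The parental group held 2 samples, and each knockout group held 3 clones (A3, D12 and E4 for IGF2BP3, and B7, F6 and G6 for IGF2BP2). Each of these 8 lines had 2 numbered libraries per treatment, which gave 4 parental libraries and 6 libraries of each knockout in each treatment. Clones A3 and E4 share a guide and D12 was made with another, and F6 and B7 share a guide and G6 was made with another. Tunicamycin was given at 5 µg/mL for 4 h, as stated for the parental and IGF2BP3 knockout cells; the dose and time for the IGF2BP2 knockout cells are not given in the sources used here. The labels do not say whether numbered libraries came from separate cultures, so p-values measure only the spread between these libraries, which may be technical.

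Wnt ligands bind Frizzled receptors and LRP co-receptors and thereby switch off a cytoplasmic complex, built on AXIN and APC, that marks beta-catenin for destruction. Beta-catenin then enters the nucleus and works with the TCF/LEF factors, and the genes they switch on include several inhibitors of the pathway itself. HCT116 carries a mutant, stabilised beta-catenin, so in these cells the pathway is active without the ligand signal that intestinal stem cells depend on.

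Total counts ran from 16651438 to 24913021 per library (median 21441775.5), with 19103176 to 24913021 in the DMSO and 16651438 to 23588704 in the tunicamycin libraries. The libraries numbered 1 had counts for 21259 to 23139 genes and those numbered 2 for 23423 to 24267. Levels are given as CPM, the counts scaled to a common library size, after TMM scaling over all libraries. HSPA5, the endoplasmic reticulum chaperone that stress of this kind induces, was at 773 to 1108 CPM in the DMSO libraries and at 7910 to 10894 CPM in the tunicamycin libraries. The clone G6 control libraries have a title that says control and a treatment entry that says tunicamycin; they were placed with DMSO by their title, their HSPA5 was 821 and 991 CPM, and each result that uses them was also computed without them. IGF2BP3 RNA was at 18.7 to 41.7 CPM in the IGF2BP3 knockout and at 70.0 to 82.7 CPM in the parental DMSO libraries, and IGF2BP2 RNA at 81.2 to 92.7 CPM in its knockout and at 159 to 195 CPM in the parental libraries. The epithelial markers summed to 3036 to 5542 CPM; of the colon markers CDX2 was at 8.58 to 15.9 CPM and KRT20 reached 1.99 CPM, while CDX1, VIL1 and LGALS4 were at or near 0. The immune and endothelial lists stayed below 1 CPM, and the fibroblast list was mostly COL1A1, at 4.602 to 12.3 CPM.

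Testing was possible for 7 of the 10 genes in every comparison. LGR5, a receptor for R-spondins and a marker of intestinal stem cells, had 0 counts in 24 libraries and 12 counts in all, and its highest value was 4 counts (0.192 CPM). ASCL2, a stem cell transcription factor, had 2 counts in all, and LEF1, a DNA-binding partner of beta-catenin, had 6. A count of 0 allows a level of up to 0.120 to 0.180 CPM (3 counts, which covers counting error only). These genes were therefore not detectable, or barely so, at this depth in any group. In bulk RNA, fewer cells that express a gene and less RNA per cell cannot be told apart.

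Levels of different genes were compared only per kilobase of merged exon length, in the parental DMSO libraries. DKK1, a secreted inhibitor that binds the LRP co-receptors, stood first at 224 CPM per kilobase, and CTNNB1, the beta-catenin gene, was next at 37.1. ZNRF3 and RNF43, membrane ubiquitin ligases that remove Frizzled receptors, were at 3.70 and 1.42, and TCF7, a DNA-binding partner of beta-catenin, was at 3.38. AXIN2, a scaffold of the destruction complex, was at 0.881 CPM per kilobase, and NKD1, which binds Dishevelled and restrains the pathway, was at 0.680. The order of ZNRF3 and TCF7 changed when the longest transcript was used as the length (3.77 and 6.37 CPM per kilobase).

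**Figure D1:**
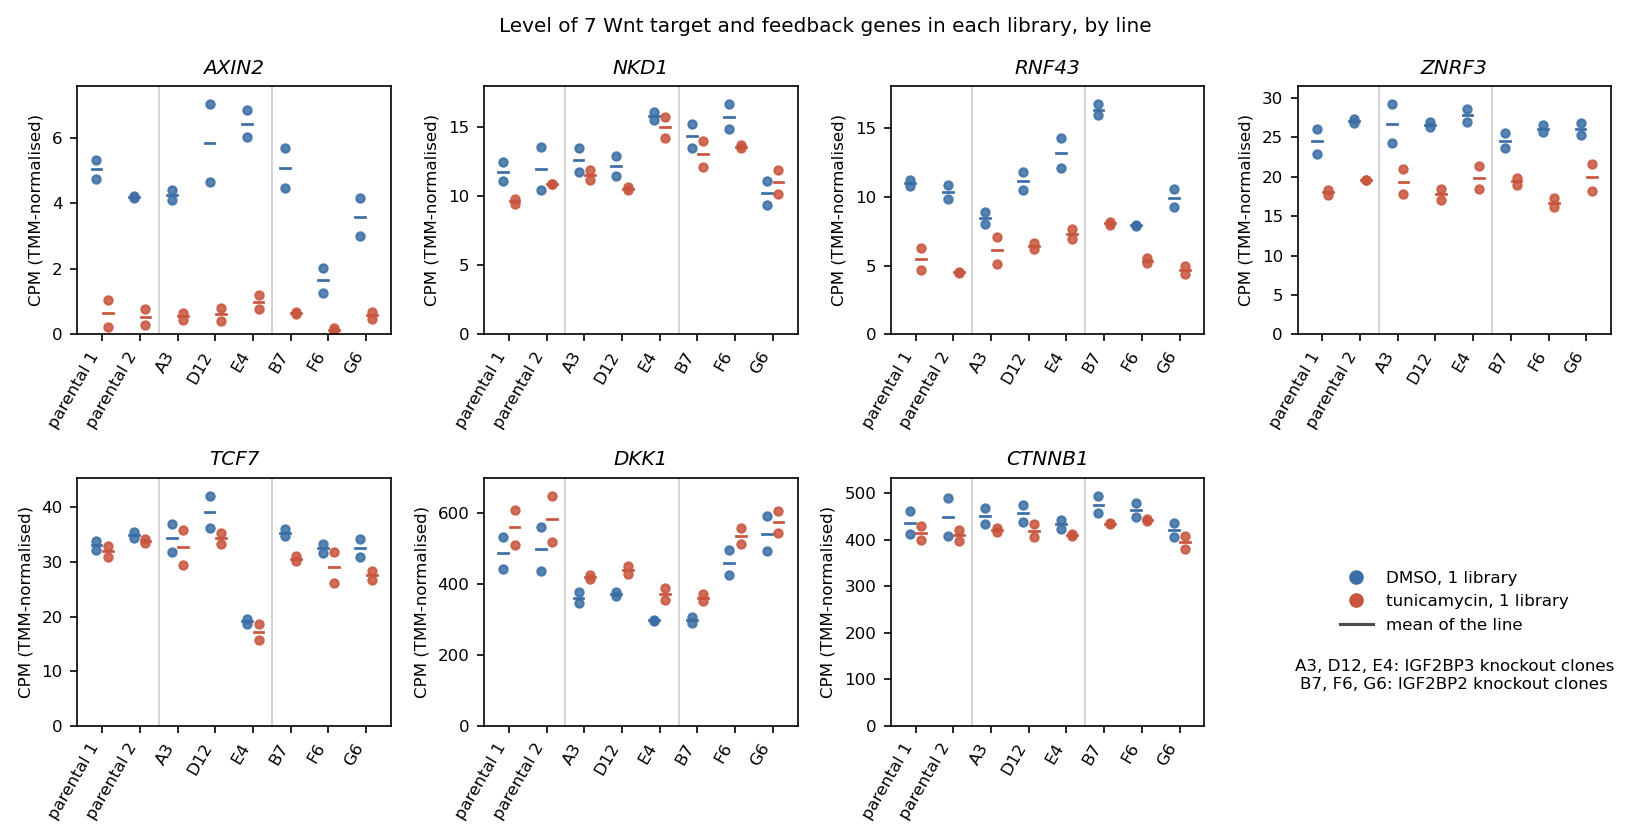
Level of the 7 testable genes in each library, in CPM after TMM scaling, by line along the x axis; each point is 1 library, and the colours mark DMSO and tunicamycin. AXIN2 was lower in each of the 16 tunicamycin libraries than in any DMSO library, TCF7 was low in clone E4, and DKK1 was low in the IGF2BP3 knockout clones and in clone B7.

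The sequence upstream of DKK1 is shown because DKK1 was the only one of the 10 genes called between a knockout and the parental cells. It covers the 250 bases before the RefSeq start site on the plus strand (chr10:52314031-52314280, GRCh38.p14), and the capitals mark letters that the TCF/LEF factors are known to favour.
DKK1 upstream: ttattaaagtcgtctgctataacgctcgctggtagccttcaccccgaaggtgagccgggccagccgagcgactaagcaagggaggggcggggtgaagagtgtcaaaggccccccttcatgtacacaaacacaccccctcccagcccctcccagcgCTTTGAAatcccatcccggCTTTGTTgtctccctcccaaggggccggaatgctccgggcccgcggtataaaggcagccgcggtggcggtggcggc
The window was searched on both strands for the word CTTTGAT, its variant CTTTGAA and the further variant CTTTGTT, and the matches do not overlap. The second word starts 95 bases and the third 76 bases upstream of the start site, and at least 1 of the 3 words is present in 9.97% of 35116 promoter windows of the same length (3.80% for the second and 4.499% for the third). A match is only a match of letters. Windows for RNF43, LEF1, TCF7 and CTNNB1 were also found; among them CTTTGTT occurs before 1 of the TCF7 start sites, on the reverse strand 50 bases upstream. AXIN2, LGR5, ASCL2, NKD1 and ZNRF3 had no entry in the promoter table.

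The first question was what tunicamycin did to these genes in each genotype, and the effect was estimated inside lines. AXIN2, RNF43 and ZNRF3 fell in the parental cells and in both knockouts. DKK1 was higher in all 8 lines, by less than 1.25-fold, and was called in both knockouts. TCF7 and CTNNB1 were lower in all 8 lines. TCF7 was called in the IGF2BP2 knockout, and CTNNB1 was called narrowly in both knockouts. NKD1 passed the test in no genotype. A gene is called here when its p-value from the quasi-likelihood test of edgeR is below 0.05 after Benjamini-Hochberg adjustment over all genes tested.

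AXIN2 (chromosome 17, 65528563 to 65561647, minus strand, GRCh38) had the steepest fall. In the parental DMSO libraries it was at 5.33 and 4.73 CPM in sample 1 and at 4.15 and 4.21 CPM in sample 2. After tunicamycin it was at 0.233 and 1.04 CPM in sample 1 and at 0.285 and 0.767 CPM in sample 2, which are 5, 23, 6 and 16 counts. The parental groups did not overlap. In the IGF2BP3 knockout the 6 DMSO libraries ran from 4.10 to 7.01 CPM (median 5.33) and the 6 tunicamycin libraries from 0.416 to 1.21 CPM (median 0.716). In the IGF2BP2 knockout AXIN2 ran from 1.27 to 5.69 CPM (median 3.58) in DMSO and from 0.0981 to 0.680 CPM (median 0.546) in tunicamycin. All 16 tunicamycin libraries lay below all 16 DMSO libraries, although clone F6 in DMSO, at 1.27 and 2.03 CPM, came close to clone E4 in tunicamycin, at 1.21 CPM. The log2 change was -2.96 (SE 0.366, adjusted p = 2.41e-04, edgeR) in the parental cells, -2.93 (SE 0.191, adjusted p = 2.67e-08) in the IGF2BP3 knockout and -2.92 (SE 0.222, adjusted p = 9.89e-08) in the IGF2BP2 knockout. Its mean was lower in 8 of 8 lines, by at the least 6.15-fold, in G6. Clone F6 had 3 and 2 counts left after tunicamycin, and its ratio of summed counts over depth was 11.9 (exact 95% interval 4.85 to 37.6, counting error only). AXIN2 entered the test through its DMSO libraries, since its tunicamycin counts were low throughout. It shares 1316 exon bases on the same strand with AC004805.1, which had 0 counts.

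RNF43 (chromosome 17, 58352500 to 58417595, minus strand) was at 11.2, 10.8, 9.79 and 10.8 CPM in the parental DMSO libraries and at 6.28, 4.67, 4.46 and 4.56 CPM after tunicamycin. These groups did not overlap. Its IGF2BP3 knockout libraries ran from 8.03 to 14.3 CPM (median 11.1) in DMSO and from 5.10 to 7.62 CPM (median 6.77) in tunicamycin. Its IGF2BP2 knockout libraries ran from 7.89 to 16.7 CPM (median 9.88) and from 4.36 to 8.17 CPM (median 5.33), and overlapped because clone B7 in tunicamycin was as high as clone F6 in DMSO. Within every line the treated libraries lay below the DMSO libraries, by 1.39-fold in A3 to 2.29-fold in parental sample 2. The log2 change was -1.09 (SE 0.115) in the parental cells, -0.71 (SE 0.1003) in the IGF2BP3 knockout and -0.90 (SE 0.0928) in the IGF2BP2 knockout, with edgeR adjusted p of 8.44e-05, 7.01e-05 and 2.37e-06. RNF43 shares 4326 exon bases on the same strand with AC004687.2 (at most 8 counts in a library) and 1521 on the opposite strand with TSPOAP1-AS1 (at most 23 counts); how such reads were assigned is not given in the sources used here.

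ZNRF3 (chromosome 22, 28883592 to 29057487, plus strand) was at 26.1, 23.0, 26.8 and 27.4 CPM in the parental DMSO libraries and at 18.4, 17.7, 19.6 and 19.6 CPM after tunicamycin. Over all lines its DMSO libraries, at 23.0 to 29.2 CPM, did not overlap its tunicamycin libraries, at 16.1 to 21.7 CPM. Its mean was lower in 8 of 8 lines, by 1.27-fold in B7 to 1.56-fold in F6. The log2 change was -0.45 (SE 0.0608), -0.50 (SE 0.0622) and -0.45 (SE 0.0636) in the parental, IGF2BP3 knockout and IGF2BP2 knockout cells, with adjusted p of 4.23e-04, 1.93e-05 and 4.92e-05 by the same edgeR test.

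NKD1 was at 11.03, 12.5, 10.4 and 13.5 CPM in the parental DMSO libraries and at 9.3998, 9.79, 10.9 and 10.8 CPM after tunicamycin. These overlap, and the log2 changes of -0.21, -0.13 and -0.08 in the parental, IGF2BP3 knockout and IGF2BP2 knockout cells did not pass (adjusted p = 0.190, 0.123 and 0.456, edgeR). Its mean was lower after tunicamycin in 7 of 8 lines and higher in G6.

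TCF7 (chromosome 5, 134114711 to 134151865, plus strand) was at 33.8, 32.3, 35.6 and 34.5 CPM in the parental DMSO libraries and at 30.9, 32.99, 34.1 and 33.6 CPM after tunicamycin, and these overlap. Its log2 change was -0.04 in the parental cells and -0.13 in the IGF2BP3 knockout (adjusted p = 0.605 and 0.130, edgeR). With a replicate block, a term for the library number, TCF7 was called in the IGF2BP3 knockout (adjusted p = 0.0449, edgeR). In the IGF2BP2 knockout TCF7 fell by 0.20 on the log2 scale (SE 0.0524, adjusted p = 0.00609, edgeR). That call was lost without clone B7 (adjusted p = 0.0528) or G6 (adjusted p = 0.056). CTNNB1 was at 405 to 494 CPM in all DMSO libraries and at 380 to 443 CPM in all tunicamycin libraries, and was lower in 8 of 8 lines by 1.05-fold to 1.10-fold. Its log2 change was -0.10 in each genotype and passed narrowly in the IGF2BP3 knockout (SE 0.0343, adjusted p = 0.0453, edgeR) and the IGF2BP2 knockout (SE 0.0338, adjusted p = 0.0362, edgeR), not in the parental cells (adjusted p = 0.282). Leaving out any clone ended these CTNNB1 calls: adjusted p was 0.144, 0.25 and 0.201 without A3, D12 and E4, and 0.188, 0.124 and 0.0979 without B7, F6 and G6. Without the G6 control libraries it was 0.133. Both CTNNB1 calls were also lost with DESeq2 size factors, without a filter on low counts, in a single fit of all libraries and with no line term (edgeR adjusted p from 0.0674 to 0.272). With a replicate block CTNNB1 was called in the parental cells (adjusted p = 0.0336, edgeR).

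DKK1 (chromosome 10, 52314296 to 52318042, plus strand) was at 534 and 443 CPM in parental sample 1 and at 562 and 438 CPM in sample 2 in DMSO. After tunicamycin it was at 610.0 and 511 CPM in sample 1 and at 649.5 and 519.9 CPM in sample 2. Each line was higher after tunicamycin, by 1.06-fold to 1.25-fold, but in the parental samples the libraries numbered 1 also exceeded those numbered 2 in both treatments, so the treatment groups overlap. The log2 change was 0.22 in the parental cells (adjusted p = 0.142), 0.26 in the IGF2BP3 knockout (SE 0.0416, adjusted p = 1.83e-04) and 0.19 in the IGF2BP2 knockout (SE 0.0536, adjusted p = 0.0105), all by edgeR. The IGF2BP2 knockout call was lost without B7 (adjusted p = 0.146) or F6 (adjusted p = 0.0615), with no line term (adjusted p = 0.513) and in a single fit of all libraries (adjusted p = 0.0508). The parental call was gained without a filter on low counts (adjusted p = 0.0322, edgeR) and with a replicate block (adjusted p = 5.36e-05, edgeR).

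Of the 7 genes tested, 3 were called in the parental cells, all lower, where 26.8% of all genes tested were called (14.3% lower and 12.5% higher). In the IGF2BP3 knockout 5 were called, 4 of them lower, against a background of 33.8% (17.6% lower and 16.2% higher). In the IGF2BP2 knockout 6 were called, 5 of them lower, against 40.1% (20.9% lower and 19.2% higher). The median log2 change of the 7 genes was -0.21, -0.13 and -0.20 in the 3 genotypes, and that of all genes tested was -0.0074, -0.0054 and -0.011. Because 3 of the 10 genes were too low to test and AXIN2 had to be high in DMSO to enter, these counts describe the tested genes only. The 10 genes were also chosen with earlier results of these data known, so setting them beside all genes is no test.

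**Figure D2:**
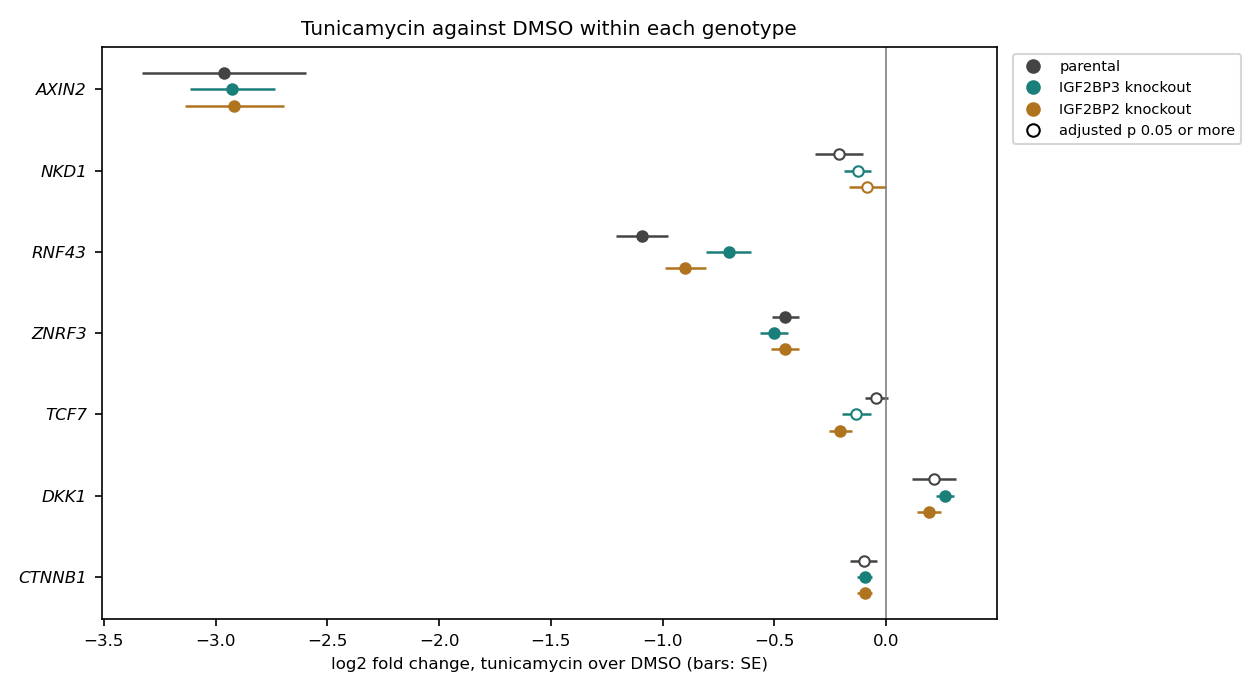
Log2 fold change of each gene in tunicamycin over DMSO, by genotype, from edgeR. Points are estimates and bars are standard errors (SE). AXIN2 lies near -2.9 in all 3 genotypes, RNF43 and ZNRF3 lie below 0 in each, and the other genes lie close to 0.

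**Figure D3:**
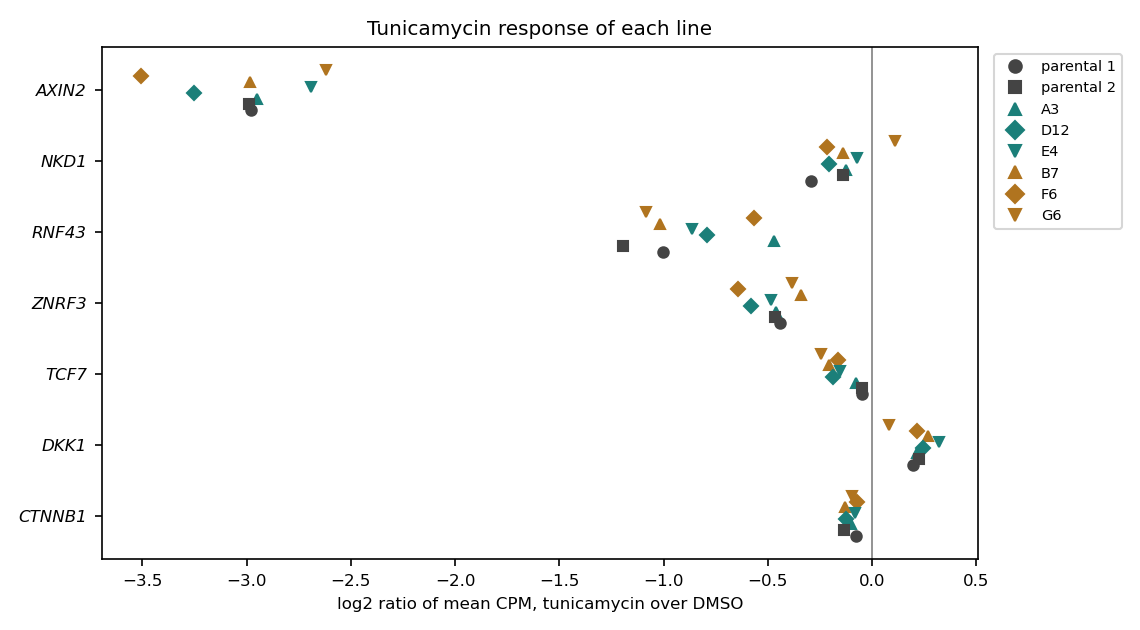
Log2 ratio of mean CPM in tunicamycin over DMSO for each of the 8 lines, 1 point per line, each the mean of 2 libraries per treatment. Every line lies below 0 for AXIN2, RNF43, ZNRF3, TCF7 and CTNNB1, every line lies above 0 for DKK1, and NKD1 is above 0 in clone G6; the AXIN2 point of clone F6 rests on 5 counts after tunicamycin.

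Whether the response to tunicamycin differed with genotype was tested by an interaction term. None of the 7 genes was called in any of the 3 interactions by edgeR or by DESeq2. The share of all genes called by edgeR was 0% in each. At an unadjusted p under 0.05 there were 1, 1 and 0 of the 7 genes (edgeR). Of all genes, 255 of 15313, 213 of 15178 and 271 of 14916 were under it. For AXIN2 the interaction was 0.04 on the log2 scale in the IGF2BP3 knockout (95% interval -0.77 to 0.86) and 0.05 in the IGF2BP2 knockout (95% interval -0.96 to 1.06). The gene with an unadjusted p under 0.05 in the first was RNF43, whose fall was smaller in the IGF2BP3 knockout than in the parental cells by 0.39 (95% interval 0.06 to 0.72, adjusted p = 1.00, edgeR). TCF7 was the one in the second, at -0.16 (adjusted p = 1.00, edgeR). The intervals are wide for AXIN2, and values that miss the threshold do not show equal responses.

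The knockouts were then compared with the parental cells within each treatment. The comparisons share the parental libraries. The labels name no unedited clone, so loss of the gene and growth from a single cell cannot be told apart. DKK1 was the only one of the 7 genes called, and it was lower in the IGF2BP3 knockout in both treatments. In DMSO its IGF2BP3 knockout libraries were at 347 and 377 CPM in A3, 367 and 377 CPM in D12, and 297 and 299.7 CPM in E4. All 6 lay below the lowest parental library, at 438 CPM. In tunicamycin they were at 426 and 414 CPM in A3, 452 and 429 CPM in D12, and 389.9 and 355 CPM in E4, again all below the lowest parental library, at 511 CPM. The means were 344 ± 37.1 CPM (SD, n = 6) against 494 ± 63.4 CPM (SD, n = 4) in DMSO, and 411 ± 34.1 CPM (SD, n = 6) against 572 ± 68.2 CPM (SD, n = 4) in tunicamycin. The log2 difference was -0.52 in DMSO (SE 0.0858, 95% interval -0.71 to -0.34, adjusted p = 0.00665, edgeR) and -0.48 in tunicamycin (SE 0.0770, 95% interval -0.65 to -0.31, adjusted p = 0.0137, edgeR). With the counts of each line summed, so that the lines were the units, the adjusted p was 0.0444 and 0.0373 (edgeR). The labels do not say whether parental samples 1 and 2 were separate cultures, so they may not be independent units. The tunicamycin call was lost without the first library of parental sample 1 (adjusted p = 0.08) or of sample 2 (adjusted p = 0.0569). DKK1 shares 212 exon bases on the opposite strand with PRKG1-AS1, which had at most 62 counts.

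So 1 of 7 genes was called in the IGF2BP3 knockout in each treatment, where 1.61% of all genes tested were called in DMSO and 0.718% in tunicamycin. Among the other genes RNF43 and NKD1 had unadjusted p below 0.05 in tunicamycin, with log2 differences of 0.40 and 0.27 (adjusted p = 0.325 and 0.471, edgeR). Of all genes, 1502 of 14626 were below it there. TCF7 differed by -0.15 in DMSO and -0.23 in tunicamycin, and without clone E4 by 0.10 and 0.02; none of these passed. In a single fit of all libraries RNF43 (0.40, adjusted p = 0.0265) and TCF7 (-0.29, adjusted p = 0.0173) were called in tunicamycin (edgeR). That fit gave each line its own mean in each treatment, so its p-values leave out the spread between clones. AXIN2 differed by 0.25 in DMSO (95% interval -0.12 to 0.62), and ZNRF3 and CTNNB1 by 0.06 and 0.01.

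In the IGF2BP2 knockout none of the 7 genes was called against the parental cells in either treatment by edgeR or DESeq2, and edgeR called 0.0137% of all genes in DMSO and 0.00694% in tunicamycin. At an unadjusted p under 0.05 there were 0 genes in DMSO and 2 in tunicamycin, NKD1 (0.29 on the log2 scale) and TCF7 (-0.18). Of all genes, 690 of 14564 in DMSO and 1005 of 14419 in tunicamycin were under it. DKK1 ran from 292 to 593 CPM in the IGF2BP2 knockout DMSO libraries (median 459) and from 352 to 606 CPM in tunicamycin (median 529), which overlaps the parental range in both treatments. Its log2 difference was -0.18 in DMSO (95% interval -0.56 to 0.19) and -0.22 in tunicamycin. Between the knockouts none was called in either treatment by edgeR or DESeq2, where edgeR called 0.589% and 0.391% of all genes. At an unadjusted p under 0.05 there were AXIN2 (0.67 higher in the IGF2BP3 knockout, 95% interval 0.07 to 1.28) and DKK1 (-0.34) in DMSO, and DKK1 (-0.26) in tunicamycin. Of all genes, 1995 of 14250 in DMSO and 2073 of 14066 in tunicamycin were under it. Without clone B7, DKK1 was called between the knockouts in DMSO (-0.55, adjusted p = 0.0293) and in tunicamycin (-0.44, adjusted p = 0.038). Without clone G6 it was not called and the difference was smaller, -0.14 in DMSO (adjusted p = 0.648) and -0.14 in tunicamycin (adjusted p = 0.658). In a single fit of all libraries DKK1 (-0.30, adjusted p = 0.0148, edgeR) and AXIN2 (0.80, adjusted p = 0.0218, edgeR) were called in DMSO. The p-values of that fit leave out the spread between clones.

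**Figure D4:**
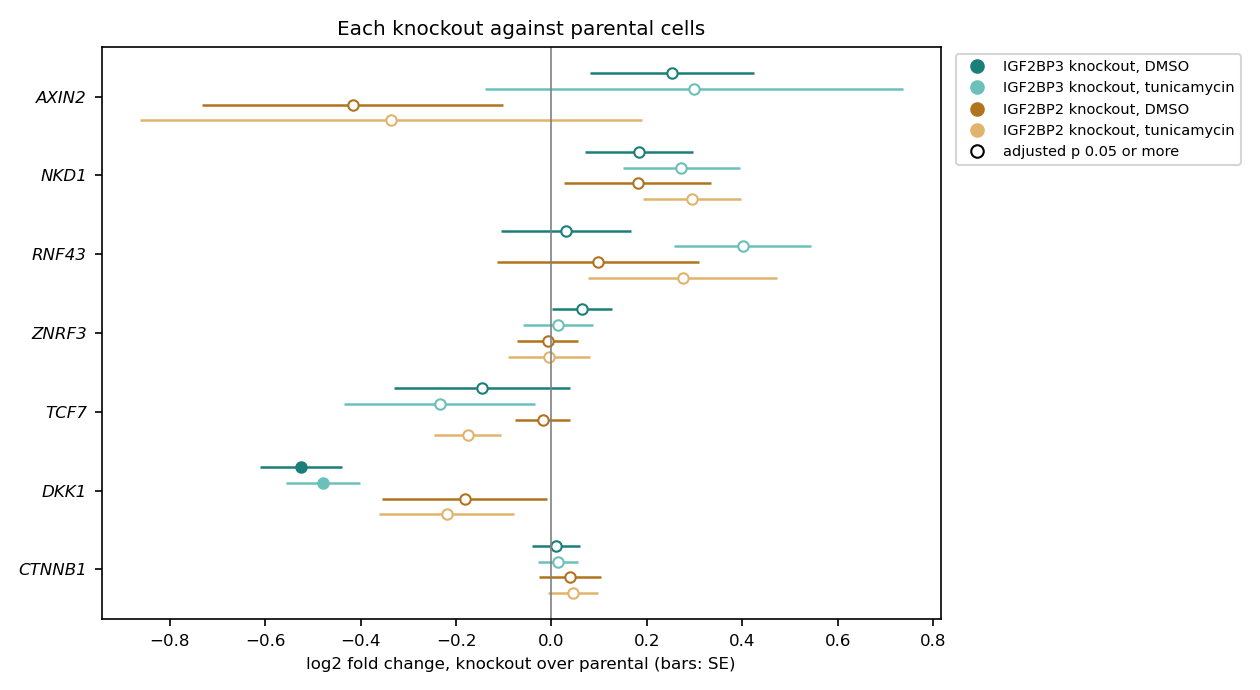
Log2 difference of each gene between each knockout and the parental cells, in DMSO and in tunicamycin, from edgeR. Points are estimates and bars are standard errors (SE). DKK1 lies at -0.52 and -0.48 in the IGF2BP3 knockout. Its 95% intervals in the IGF2BP2 knockout, which are not drawn, include 0.

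The clones of a knockout were compared over both treatments, with treatment as a covariate. Among the IGF2BP3 knockout clones NKD1, TCF7 and DKK1 differed, 3 of 7 genes against 7.63% of all genes. TCF7 was at 18.7 and 19.6 CPM in E4 in DMSO and at 18.6 and 15.8 CPM in tunicamycin. Every library of every other line lay above these, at 31.0 to 42.1 CPM in DMSO and 26.2 to 35.9 CPM in tunicamycin. NKD1 was highest in E4, at 16.02 and 15.5 CPM in DMSO and 15.7 and 14.2 CPM in tunicamycin, while A3 and D12 ran from 10.4 to 13.4 CPM. The adjusted p was 3.64e-06 for TCF7, 0.00299 for NKD1 and 0.00602 for DKK1 (edgeR). Without E4 none of the 3 passed, at 0.732, 0.925 and 0.873, and DKK1 also missed without D12 (0.0629). RNF43 was called among these clones by DESeq2 (adjusted p = 0.0460) and, by edgeR, without a filter on low counts (adjusted p = 0.0481), which makes 4 of 7. The share of all genes called under these settings is not given here. TCF7 shares 210 exon bases on the opposite strand with SKP1, which reached 2361 counts in a library; without strand, reads of such genes cannot be told apart, and the strand setting is not given in the sources used here.

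Among the IGF2BP2 knockout clones AXIN2, NKD1, RNF43, DKK1 and CTNNB1 differed, 5 of 7 genes against 26.4% of all genes. AXIN2 was lowest in F6, at 1.27 and 2.03 CPM in DMSO, against 4.47 and 5.69 CPM in B7 and 3.005 and 4.15 CPM in G6 (adjusted p = 7.15e-04, and 0.282 without F6, edgeR). RNF43 was highest in B7, at 15.9 and 16.7 CPM in DMSO, against 7.89 and 7.92 CPM in F6 and 9.24 and 10.5 CPM in G6 (adjusted p = 6.63e-05, and 0.713 without B7). DKK1 was lowest in B7, where RNF43 was highest: it was at 308 and 292 CPM in B7, 498 and 425 CPM in F6 and 593 and 492.7 CPM in G6 in DMSO (adjusted p = 3.35e-06, and 0.138 without B7). NKD1 was lowest in G6 (adjusted p = 0.00763, 0.583 without G6 and 0.178 without its control libraries). CTNNB1 passed at 0.0177 and was lost without any 1 clone (0.0671 without B7, 0.0632 without F6, 0.783 without G6), without the G6 control libraries (0.181) and without a filter on low counts (0.0878). The parental samples did not differ in any of the 7 genes by edgeR or DESeq2, and 0% of all genes were called between them. None of the 7 had an unadjusted p under 0.05 either (edgeR), where 254 of 14398 of all genes did.

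The other genes of the pathway were taken from lists of 87 genes ordered by role. In the parental cells 34 of 65 tested genes were called in tunicamycin against DMSO, 26 lower and 8 higher. Of 64 and 63 tested in the IGF2BP3 and IGF2BP2 knockouts, 35 (27 lower) and 36 (26 lower) were called. The backgrounds are those given for all genes above, and the median log2 change of these genes was -0.17 in the parental cells, -0.17 in the IGF2BP3 knockout and -0.14 in the IGF2BP2 knockout. These lists, too, were chosen with earlier results of these data known.

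Of 8 Wnt ligands tested in the parental cells 5 fell and none rose: WNT3A by 1.25 on the log2 scale, WNT7B by 0.98, WNT10B by 0.79, WNT16 by 0.62 and WNT9A by 0.59. Among the receptors and secretion factors 9 of 16 fell and 1 rose. The Frizzled receptors FZD1 and FZD4 fell by 1.16 and 1.11 on the log2 scale, and LGR4, an R-spondin receptor, fell by 0.69; the gene that rose, FZD2, by 0.50, was named after its values were seen. FZD9, another Frizzled receptor, was called at -1.47 on 11 to 13 counts per library in DMSO and 2 to 7 in tunicamycin; it too entered the test through its DMSO libraries and was too low to test in either knockout. In the cytoplasmic relay and destruction complex 5 of 16 genes were higher and 2 lower, with a median log2 change of -0.02. AMER1, which ties the destruction complex to the membrane, fell by 1.44 on the log2 scale. CSNK1A1, a kinase of the complex, and AXIN1, the constitutive scaffold related to AXIN2, each rose by 0.32, as did TNKS, the enzyme that marks AXIN for degradation.

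Among the nuclear partners 5 of 9 fell, BCL9 by 0.71, TLE1 by 0.49, BCL9L by 0.43, TLE3 by 0.35 and PYGO2 by 0.23 on the log2 scale. BCL9, BCL9L and PYGO2 are co-activators of beta-catenin and the TLE genes encode co-repressors. One of 4 tested secreted or membrane inhibitors, TMEM131L, fell, by 0.37. Of 12 other target genes 4 fell and 2 rose. SOX9, a progenitor factor, fell by 1.14 on the log2 scale, while VEGFA, a blood vessel growth factor, rose by 1.41 and JAG1, a Notch ligand, by 0.68. SP5, a transcription factor induced by Wnt signals, was called at -2.09 on 12 to 14 counts per library in DMSO and 2 to 4 in tunicamycin; it entered the test through its DMSO libraries and was too low to test in either knockout. Adjusted p for the genes named ranged from 2.19e-08 for VEGFA to 0.0243 for FZD9 (edgeR).

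**Figure D5:**
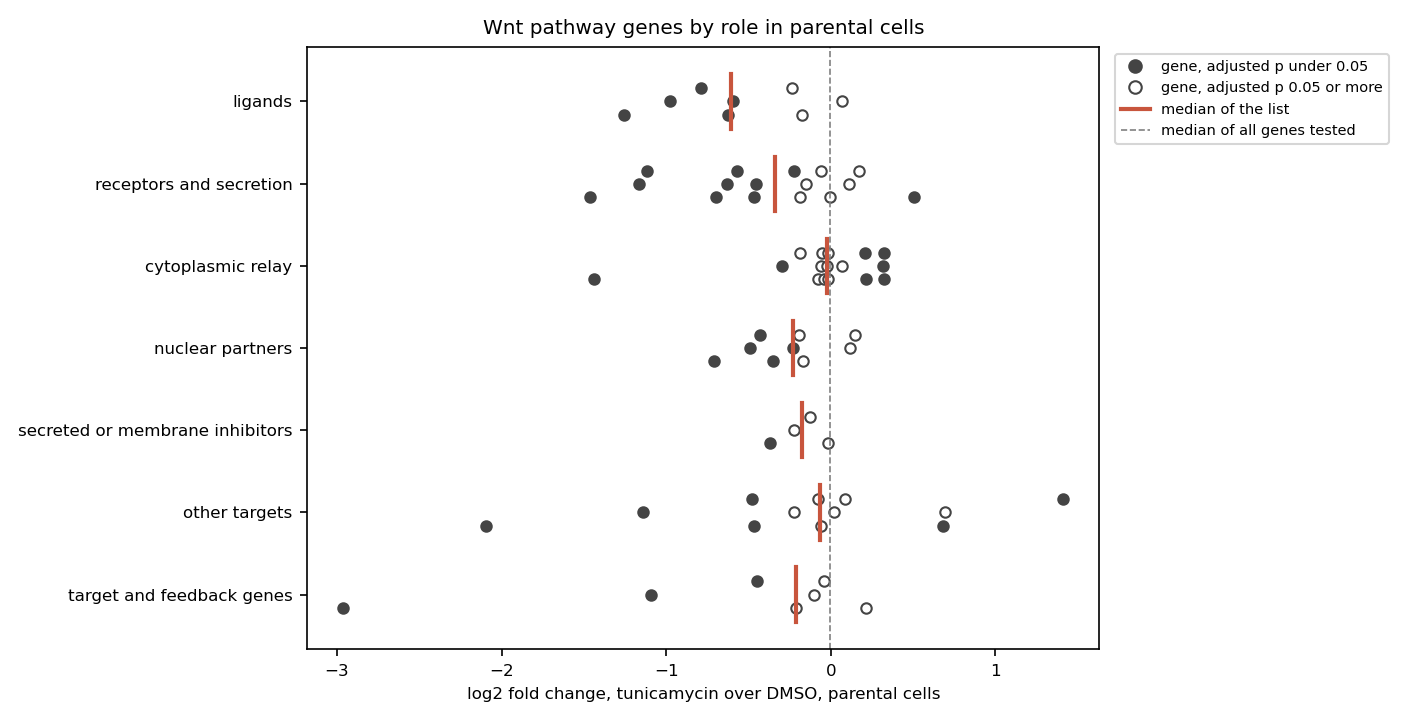
Log2 fold change in tunicamycin over DMSO in the parental cells for each tested Wnt pathway gene, 1 point per gene, by role along the y axis; the colours mark genes called and not called. Ligands and nuclear partners that were called all lie below 0, while the relay list has 5 called genes above 0 and 2 below.

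Against the parental cells 0 of 66 and 0 of 63 of these other genes were called in the IGF2BP3 knockout in DMSO and tunicamycin by edgeR. At an unadjusted p under 0.05 there were 15 and 13 (edgeR), and 1994 of 14568 and 1502 of 14626 of all genes. DESeq2 called 6 and 1, and its share over all genes is not given here. In the IGF2BP2 knockout 0 of 65 and 0 of 64 were called by edgeR, and 0 in both by DESeq2. At an unadjusted p under 0.05 there were 3 and 9 (edgeR), and 690 of 14564 and 1005 of 14419 of all genes. Between clones 13 of 64 were called for IGF2BP3, where 7.63% of all genes were called, and 30 of 63 for IGF2BP2, where 26.4% were.

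Across the 16 means of a line in a treatment, centred by treatment, the pairs among the 7 genes with the largest correlations were RNF43 and DKK1 (r = -0.76), NKD1 and DKK1 (r = -0.62), NKD1 and TCF7 (r = -0.62) and AXIN2 and RNF43 (r = 0.57). The points share lines and libraries, since each line gives 2 of them, and 1 clone can set such a value. Among 10144 genes with a mean count of at least 100, the pattern most like that of DKK1 was that of VGF (r = 0.97), followed by SNHG29 (0.94). The nearest to TCF7 were HNRNPL and FBXL19 (both 0.96), to CTNNB1 TSPAN18 and MED13L (both 0.93), to NKD1 DPH6 and GTF3C2 (both 0.89), to RNF43 PPP3CC (0.88), and to ZNRF3 SYTL4 (0.82). AXIN2 was below that mean count and was not searched. These values are the highest found among 10144 genes over 16 points, and how high they would run for unrelated genes was not tested.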

How the data were processed

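The authors deposited a table of whole-number read counts per Ensembl gene for 32 HCT116 libraries (poly(A), directional, paired-end reads of 100 bases, per the labels' protocols). Reads were aligned with STAR 2.7.5c to hg38, per the submitters' processing notes; the counting tool, strand setting and annotation are not given in the sources used here. Symbols, positions and exon lengths came from GENCODE 29 on GRCh38, and the upstream sequence from RefSeq. The 10 genes and the other lists were chosen with earlier results of these data known.

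The counts were tested with edgeR 4.0.16 (quasi-likelihood test, TMM, filterByExpr by group, Benjamini-Hochberg over all genes tested, threshold 0.05) on the libraries compared, in R 4.3.3 with limma 3.58.1. Line terms entered the fits of tunicamycin effects and interactions, knockout comparisons had no covariate, and clones were compared with treatment as a covariate. Standard errors were the log2 fold change over the square root of F, and 95% intervals used the t distribution with edgeR's degrees of freedom. DESeq2 1.42.0 was an alternative tool. The other alternatives were DESeq2 size factors, filters, a replicate block, no line term, counts summed per line, a single fit of all libraries, and leaving out lines, libraries and the G6 control libraries. All 10 genes were named; of each other list, the called genes were named if 5 or fewer, and otherwise the 4 with the largest change. Patterns like a gene's were sought by Pearson correlation over line means. Counting intervals and floors cover counting error only. The numbered libraries of a line differed by more than sampling noise (chi-square per degree of freedom 4.95 to 28.2). The scripts were tested on simulated counts.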

Additional observations from a re-analysis of the deposited data

Results flagged for a closer look

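In the parental tunicamycin libraries, the first library of sample 1 had 6.28 CPM of RNF43, and the next highest of the 4 had 4.67 CPM. The gap was 0.888 of the whole range of the group, which set this library apart from the other 3. It was the only such case among 42 groups of libraries (7 genes in 6 groups), and chance sets apart about 1 group in 20.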

How the results depend on the processing

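Calls near the threshold depended on the processing, and the falls of AXIN2, RNF43 and ZNRF3 in tunicamycin kept direction and call under every alternative run in all 3 genotypes. Numbered libraries deviated together across genes (r over 0.1 in 119 of 120 pairs, lowest 0.0878, median 0.375). The main fits had no term for the number, because the labels do not say what it marks. With a replicate block, 5 of the 7 genes were called in tunicamycin in the parental cells in place of 3 (DKK1 and CTNNB1 were added, adjusted p = 5.36e-05 and 0.0336, edgeR), TCF7 was added in the IGF2BP3 knockout (adjusted p = 0.0449, edgeR), and RNF43 among the IGF2BP3 knockout clones (adjusted p = 0.0291, edgeR). For the other alternatives the cause of a change was not tested, beyond fewer libraries where 1 was left out. The single fit gave each line its own mean in each treatment. Its p-values between genotypes therefore measure only the spread between numbered libraries and leave out that between clones. The share of all genes called under each alternative is not given here, so the counts in this section are not set against it.

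Leaving out a line or library gave 3 to 4 called genes in place of 6 for tunicamycin in the IGF2BP2 knockout, 0 to 1 in place of 1 for the IGF2BP3 knockout against the parental cells in tunicamycin, 0 to 1 in place of 0 between the knockouts in each treatment, 0 to 3 in place of 3 among the IGF2BP3 knockout clones, and 2 to 3 in place of 5 among the IGF2BP2 knockout clones. Without the G6 control libraries that last count was 3. A single fit of all libraries called 3 genes for the IGF2BP3 knockout in tunicamycin and 2 between the knockouts in DMSO.

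For the other pathway genes, 0 of which were called between genotypes, a single fit called 3 and 3 in DMSO and tunicamycin for the IGF2BP3 knockout, 2 and 4 for the IGF2BP2 knockout, and 4 and 8 between the knockouts. For the IGF2BP3 knockout, DESeq2 called 6 and 1, no filter on low counts 5 and 2, and the replicate block 6 and 1, and a mean CPM of at least 1 called 2 in DMSO. DESeq2 called 3 between the knockouts in tunicamycin, and 1 was called for the IGF2BP2 knockout in DMSO without the G6 control libraries. Leaving out a line or library gave 0 to 4 and 0 to 1 for the IGF2BP3 knockout, 0 to 1 in each treatment for the IGF2BP2 knockout, 0 to 1 and 0 to 2 between the knockouts, 4 to 10 in place of 13 among the IGF2BP3 knockout clones, and 11 to 27 in place of 30 among the IGF2BP2 knockout clones.

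Over every gene and comparison, 78 of 1109 log2 values under the alternatives changed sign; none was of a value called in the main analysis. Those of the values reported or plotted, as the range without 1 line or library, were as follows. For the IGF2BP3 knockout in DMSO, RNF43 ran from -0.13 to 0.18, TCF7 from -0.35 to 0.10 and CTNNB1 from -0.022 to 0.053. In tunicamycin AXIN2 ran from -0.022 to 0.75, ZNRF3 from -0.021 to 0.060 and TCF7 from -0.40 to 0.023. For the IGF2BP2 knockout in DMSO, RNF43 ran from -0.25 to 0.30, ZNRF3 from -0.058 to 0.026, TCF7 from -0.059 to 0.0023 (0.0010 without the G6 control libraries) and DKK1 from -0.37 to 0.026. In tunicamycin AXIN2 ran from -0.598 to 0.11, RNF43 from -0.0021 to 0.43 and ZNRF3 from -0.054 to 0.073 (0.00078 with a mean CPM of at least 1). The AXIN2 interaction ran from -0.26 to 0.47 for IGF2BP3 and from -0.26 to 0.48 for IGF2BP2 (-0.060 in a single fit and -0.15 without the G6 control libraries). Depth limits LGR5, ASCL2 and LEF1 throughout and AXIN2 after tunicamycin.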
